A study of Mus musculus with 8 samples.

Results

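The 38 genes described here encode nucleolar proteins and factors of ribosome biogenesis. They were taken from the deposited gene table by symbol, from a named list of such genes. The rule of that list used no measured value, but the list was chosen with earlier results of these data known. All 38 were among the 13839 genes of the table, and all 38 passed the filter on low counts together with 13701 genes in all. Ribosomes are built in the nucleolus, where RNA polymerase I transcribes the long precursor of ribosomal RNA. Small nucleolar ribonucleoproteins (snoRNPs) guide its methylation and pseudouridylation, the small subunit processome cleaves and folds the 40S part, and a separate set of assembly factors matures the 60S part before both subunits leave the nucleus. Genes of this program are known to be induced together when cells grow, and the transcription factor MYC is one of their best-studied activators.

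Mouse aortas gave 8 libraries of messenger RNA. The 3 TAD libraries came from a model of thoracic aortic dissection in which mice drank beta-aminopropionitrile, which blocks the lysyl oxidases, the enzymes crosslinking elastin and collagen. The dose was 1 g/kg a day for 4 weeks, begun at 3 weeks of age, and at 7 weeks the vasoconstrictor peptide angiotensin II was infused at 1 µg/kg per min by osmotic pump, with tissue taken 24 h later. The 5 other libraries are labelled control, and how these mice were treated is not stated in the labels. No label says whether libraries of a group stem from different mice, and p-values accordingly reflect library-to-library spread, which may be technical in part. Levels are in CPM, counts scaled to a common library size and composition, and a gene was called where edgeR's quasi-likelihood test over all 13701 genes gave a Benjamini-Hochberg adjusted p below 0.05.

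Library totals ran from 12042971 counts (TAD 1) to 15039132 (TAD 3). The smooth muscle genes that define the aortic media were present in every library, with a summed level of 826 to 4904 CPM for 8 contractile markers in TAD and 2557 to 12121 CPM in control. Some libraries also carried other tissue. Summed heart muscle markers stood at 11215 CPM in TAD 1 and 17037 CPM in control 1, while the remaining 6 libraries had 30.7 to 2913 CPM. Neuronal and Schwann cell markers summed to 1462 CPM in TAD 2 and to 129 CPM or less elsewhere, and the muscle gene Ckm reached 721 CPM in control 2. Counts of calls are therefore given with all libraries and without the pair rich in heart muscle markers.

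Among the members, 8 carry the hexamer CACGTG, the canonical E-box bound by MYC with its partner MAX, in the 300 bases around their start (250 before and 50 after, RefSeq promoters on GRCm38.p6). They are shown because MYC is a known activator of this program and Myc was also called higher in TAD. Whether MYC acted on these genes was not tested. Each window is given 5′ to 3′ on the strand of the gene, with the hexamer in capitals. The windows lie at chr7:45830740-45830767 on the minus strand for Grwd1, chr17:71616220-71616249 (plus) for Wdr43, chr11:74898092-74898121 (plus) for Tsr1, chr6:125131811-125131840 (plus) for Nop2, chr8:106893643-106893672 (plus) for Utp4, chr10:13193092-13193121 (minus) for Ltv1, chr10:88826765-88826789 (minus) for Utp20 and chr11:3963965-3963994 (plus) for Pes1.
Grwd1: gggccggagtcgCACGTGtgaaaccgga
Wdr43: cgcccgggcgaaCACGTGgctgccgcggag
Tsr1: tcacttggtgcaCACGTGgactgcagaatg
Nop2: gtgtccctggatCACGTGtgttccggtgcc
Utp4: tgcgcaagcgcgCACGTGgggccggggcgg
Ltv1: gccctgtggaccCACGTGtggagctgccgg
Utp20: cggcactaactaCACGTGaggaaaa
Pes1: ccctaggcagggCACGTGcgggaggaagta

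The hexamer was thus in 8 of the 33 members that have an entry in the promoter table, or 24.2%, against 11.4% of 10783 tested genes with an entry. Its place relative to the start was uneven. In 7 of the 8 members it began after the start site, at base 3 to 38 of the transcript when the start is counted as base 1, whereas in Nop2 it lay 60 bases before the start. A hexamer beginning in those first 50 bases was present in 21.2% of the 33 members and in 1.77% of the tested genes; in the 250 bases before the start the shares were 3.03% of members and 9.67% of tested genes. This division at the start site was made after the matches had been seen.

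A further 7 motifs were searched on both strands in the same 300 bases, none of which contains another. The ETS motif CCGGAAG was in 12 of the 33 members (36.4%, against 18.6% of tested genes). The hexamer CACGCG, a variant of the E-box, was in 9 (27.3% against 19.1%). TCGCGAGA was in 3 members, namely Nop14, Nop58 and Tsr1 (9.09% against 2.32%). The SP1 motif GGGCGG was in 24 members (72.7% against 66.9%) and CCAAT, the site of NF-Y, in 10 (30.3% against 42.6%). AAGATGG, a core of the YY1 site, was in 2 (6.06% against 8.08%) and GCATGCGC, part of the NRF1 site, in none (against 5.68%). These are descriptions of letters in a window and not of binding. Members with CACGTG had a median log2 fold change of 0.86 and all 8 were called higher, while the 25 without it had a median of 1.01 with 24 called higher.

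Comparing TAD with control aorta, 37 of the 38 genes were higher and 1, Nop10, was not called. None was called lower, also with DESeq2, and none was lower at an unadjusted p below 0.05. Among all 13701 tested genes 15.2% were called higher and 11.8% lower, and the median log2 fold change was 0.04, against 1.01 for the members. The members' changes ran from -0.16 (Nop10) to 1.72 (Gar1, a 3.30-fold higher level), and 20 of them were at least 2-fold higher. Every TAD library lay above every control library for 33 members, an order that held for 16.9% of tested genes. The 4 called members whose groups overlapped were Utp20, Heatr1, Nat10 and Nop2, and in each of them TAD 2 lay below at least 1 control.

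The members together took 0.342%, 0.199% and 0.269% of all counts in TAD 1, 2 and 3, against 0.110%, 0.147%, 0.119%, 0.139% and 0.119% in controls 1 to 5. Their rise was thus not equal among TAD libraries. Relative to the control mean, the median member stood at 1.39 (log2) in TAD 1, 0.52 in TAD 2 and 1.08 in TAD 3, while the 5 controls lay between -0.10 and 0.16. TAD 1 held the highest TAD value for 36 members and TAD 2 the lowest for 35. In bulk tissue, more cells of a type and more RNA per cell cannot be told apart.

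**Figure D1:**
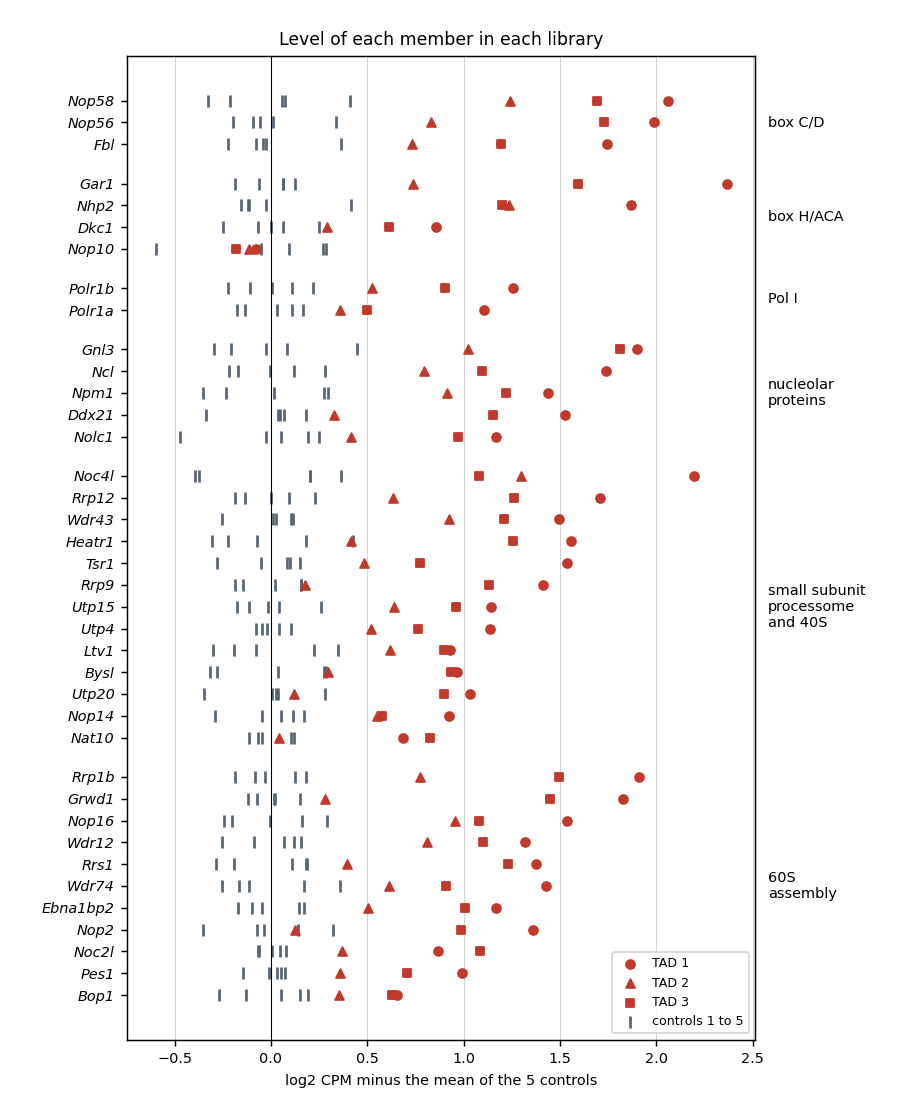
Each row is a member and each symbol a library, placed by its log2 CPM minus the mean of the 5 controls, with TAD in red and controls as grey ticks, grouped by role. TAD 2 (triangles) sits left of TAD 1 (circles) in all 38 rows, and Nop10 is the row whose TAD libraries lie within the controls.

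The count of called members moved most with TAD 1, the library with the highest levels. With TAD 1 left out, 21 members were called higher, where 10.2% of all genes were. Leaving out TAD 3 gave 30 (14.9% of all genes) and leaving out TAD 2 gave 37 (15.1% of all genes). Leaving out any 1 control gave 29 to 35, where 11.2% to 12.9% of all genes were called higher. With both TAD 1 and control 1 left out, the pair rich in heart muscle markers, 18 were called (8.02% of all genes), and Pes1, Polr1b and Noc2l joined the 16 members lost without TAD 1. With TAD 2, control 1 and control 2 left out, 37 were called (12.4% of all genes). Through all of these, 37 members kept a positive log2 fold change, and 21 of the 37 calls held with each of the 8 libraries left out singly.

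The box C/D snoRNP directs the 2′-O-methylation of ribosomal RNA. The 3 members that encode core proteins of it were all called higher, with a median log2 fold change of 1.59. Snu13, which also encodes a core protein of it, is not a member and is given below with the assembly factors. Nop58, a scaffold protein of the particle, had 104, 59.0 and 80.6 CPM in TAD 1, 2 and 3 and 19.8, 33.1, 21.4, 26.1 and 25.9 CPM in controls 1 to 5. Its lowest TAD library was well clear of the highest control, and the log2 fold change was 1.68 ± 0.22 (SE; edgeR adjusted p = 0.00129). Nop56, the related scaffold that pairs with Nop58, had 114, 50.9 and 95.1 CPM in TAD and 24.9, 36.1, 28.8, 27.4 and 26.8 CPM in control. Here too the groups were separate (1.59 ± 0.24, edgeR adjusted p = 0.00252). Fbl encodes fibrillarin, the methyltransferase itself, and had 87.4, 43.3 and 59.6 CPM in TAD against 24.6, 33.5, 25.3, 25.5 and 22.3 CPM in control. Its groups did not overlap, with TAD 2 again nearest to control 2 (1.27 ± 0.23, edgeR adjusted p = 0.00479). All 3 calls held with each library left out in turn.

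The box H/ACA snoRNP converts uridine to pseudouridine, and its 4 core proteins are also part of the telomerase particle. They did not move as a unit: 3 of 4 were called higher, and their changes spanned the whole range of the members. Gar1 had 48.0, 15.4 and 27.99 CPM in TAD and 8.78, 9.59, 8.06, 10.1 and 9.60 CPM in control. The controls were tight and the TAD libraries spread, with TAD 1 more than 3 times TAD 2, and the log2 fold change was 1.72 ± 0.31 (edgeR adjusted p = 0.00495). Nop10, the smallest core protein, had 38.2, 37.3 and 35.6 CPM in TAD and 49.3, 43.0, 38.9, 26.6 and 48.7 CPM in control. All 3 TAD values lay inside the control range, and the log2 fold change was -0.16 ± 0.20 (edgeR adjusted p = 0.596). Nhp2, which binds the guide RNA, averaged 63.0 ± 17.4 CPM in TAD and 22.9 ± 4.15 CPM in control (SD, n = 3 and 5; log2 fold change 1.46 ± 0.20). Dkc1 encodes dyskerin, the pseudouridine synthase, and averaged 48.4 ± 9.35 CPM in TAD and 31.9 ± 4.07 CPM in control (0.60 ± 0.16, edgeR adjusted p = 0.0274). The Dkc1 call was lost when TAD 1, TAD 3, control 3, control 4 or control 5 was left out, with adjusted p of 0.0557 to 0.107.

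Both catalytic subunits of RNA polymerase I were higher. Polr1a, the largest subunit, had 82.4, 49.1 and 54.0 CPM in TAD and 39.0, 43.0, 34.8, 33.7 and 41.2 CPM in control. The groups were close but separate (0.69 ± 0.18, edgeR adjusted p = 0.0251), and the call was lost without TAD 1, control 3 or control 4 (adjusted p 0.0560 to 0.0886). Polr1b, its partner in the active centre, had 45.7, 27.5 and 35.7 CPM in TAD and 20.6, 19.1, 17.7, 16.3 and 22.2 CPM in control. It was higher in every TAD library than in any control (0.92 ± 0.18, edgeR adjusted p = 0.00758), and this call held with each library left out.

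The abundant and multifunctional nucleolar proteins were called higher in 5 of 5 cases, with a median log2 fold change of 1.18. Gnl3 encodes nucleostemin, a GTPase first known from stem cells, and had 97.5, 53.0 and 91.6 CPM in TAD and 21.2, 22.5, 27.5, 35.4 and 25.6 CPM in control. All TAD libraries were above all controls (1.61 ± 0.23, edgeR adjusted p = 0.00203). Npm1 encodes nucleophosmin, a chaperone of histones and pre-ribosomes, and had 292, 203 and 251 CPM in TAD and 91.6, 130, 109, 132 and 84.2 CPM in control. Its groups were separate as well (1.18 ± 0.19, edgeR adjusted p = 0.00330). Nolc1, a chaperone of snoRNPs, changed least of the 5, with 108, 64.2 and 94.4 CPM in TAD and 34.6, 57.2, 47.2, 49.7 and 54.9 CPM in control. TAD 2 was only a little above control 2, and the change was 0.87 ± 0.21 (edgeR adjusted p = 0.0169). Nucleolin (Ncl), which binds the ribosomal RNA precursor, was the member with the most counts and averaged 459 ± 159 CPM in TAD and 193 ± 27.8 CPM in control (1.25 ± 0.22). Ddx21, an RNA helicase, averaged 148 ± 57.3 CPM in TAD and 70.4 ± 9.01 CPM in control (1.07 ± 0.24). Without TAD 1, Nolc1 and Ddx21 were not called (adjusted p 0.0815 and 0.0594).

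The small subunit processome and 40S maturation made up the largest role, with 13 of 13 called higher and a median log2 fold change of 0.93. Noc4l, which in yeast acts as a partner of Nop14, had 48.5, 26.0 and 22.3 CPM in TAD and 12.1, 13.5, 8.06, 7.92 and 12.1 CPM in control. Unlike for most members, its lowest TAD library was TAD 3, and the groups were separate (1.59 ± 0.30, edgeR adjusted p = 0.00575). Nat10, the enzyme that acetylates cytidines of 18S ribosomal RNA, had 53.0, 33.9 and 58.5 CPM in TAD and 30.4, 35.4, 31.4, 35.8 and 31.8 CPM in control. TAD 2 lay among the controls, and the call was marginal (0.56 ± 0.18, edgeR adjusted p = 0.0495). It was lost when any single library but TAD 2 was left out (adjusted p 0.0762 to 0.162). Bysl, a late factor of the 40S precursor known as Enp1 in yeast, had 50.4, 31.6 and 49.3 CPM in TAD and 26.3, 31.4, 20.6, 21.1 and 31.1 CPM in control. TAD 2 was level with control 2 and control 5, and the change was 0.74 ± 0.22 (edgeR adjusted p = 0.0340).

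Among the other processome genes, Rrp12 (1.26 ± 0.23), Wdr43 (1.23 ± 0.15), Utp15 (0.93 ± 0.16) and Utp4 (0.83 ± 0.15) were called with each library left out in turn. Wdr43, Utp15 and Utp4 belong, with Heatr1, to the part of the processome that joins the precursor during transcription. Wdr43 averaged 76.9 ± 15.2 CPM in TAD and 32.8 ± 3.22 CPM in control and had the lowest adjusted p of all members (edgeR, 0.00106). Heatr1 (1.13 ± 0.26), Ltv1 (0.80 ± 0.18), Nop14 (0.69 ± 0.15) and Tsr1 (1.00 ± 0.24) lost their call only when TAD 1 was left out. Rrp9, a protein of the U3 snoRNP (1.00 ± 0.26), lost it without TAD 1, TAD 3 or control 3. Utp20 (0.72 ± 0.22) lost it without TAD 1, TAD 3 or any control but control 5, and Bysl without TAD 1, TAD 3, control 1, control 3 or control 4. Exons of Tsr1 share 32.3% of their bases with the antisense gene Srr, and whether counting used the strand is not stated, and reads of the pair cannot be told apart. Srr itself went the other way, with 7.72 to 9.35 CPM in TAD and 14.6 to 21.6 CPM in control.

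Of the 60S assembly factors, 11 of 11 were called higher, with a median log2 fold change of 1.01. Rrp1b had 48.7, 22.1 and 36.6 CPM in TAD and 12.1, 12.6, 14.02, 14.6 and 11.3 CPM in control. The controls hardly varied and the TAD libraries were all higher (1.47 ± 0.24, edgeR adjusted p = 0.00305). Bop1 had 61.5, 49.8 and 60.2 CPM in TAD and 32.3, 43.3, 35.6, 44.6 and 40.4 CPM in control. This was the smallest change of a called member (0.54 ± 0.14, edgeR adjusted p = 0.0245), with the groups separate but close. Rrs1, which helps place the 5S particle, had 81.0, 41.1 and 73.4 CPM in TAD and 27.3, 35.4, 25.5, 33.7 and 35.5 CPM in control. Its groups were separate (1.05 ± 0.23, edgeR adjusted p = 0.0107).

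Bop1, Pes1 and Wdr12 form the PeBoW complex, which is needed to process the 28S precursor. Its parts differed in size of change, with Wdr12 at 1.09 ± 0.16 and Pes1 at 0.71 ± 0.15 beside the value of Bop1 above. The differences between them were not tested. Grwd1, a chaperone of the ribosomal protein Rpl3 (1.33 ± 0.30), Nop16 (1.20 ± 0.19), Wdr74 (1.01 ± 0.22), Ebna1bp2 (0.92 ± 0.17), the methyltransferase Nop2 (0.90 ± 0.26) and Noc2l (0.80 ± 0.16) made up the rest. Grwd1 and Rrs1 lost their call without TAD 1 only (adjusted p 0.0559 and 0.0538). Bop1 lost it without TAD 1, TAD 3, control 3 or control 5, and Nop2 without any 1 library except TAD 2 and control 2. Exons of Noc2l share 20.9% of their bases with the antisense gene Samd11, which was low in TAD (0.985 to 3.31 CPM) and in control (0 to 0.691 CPM).

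**Figure D2:**
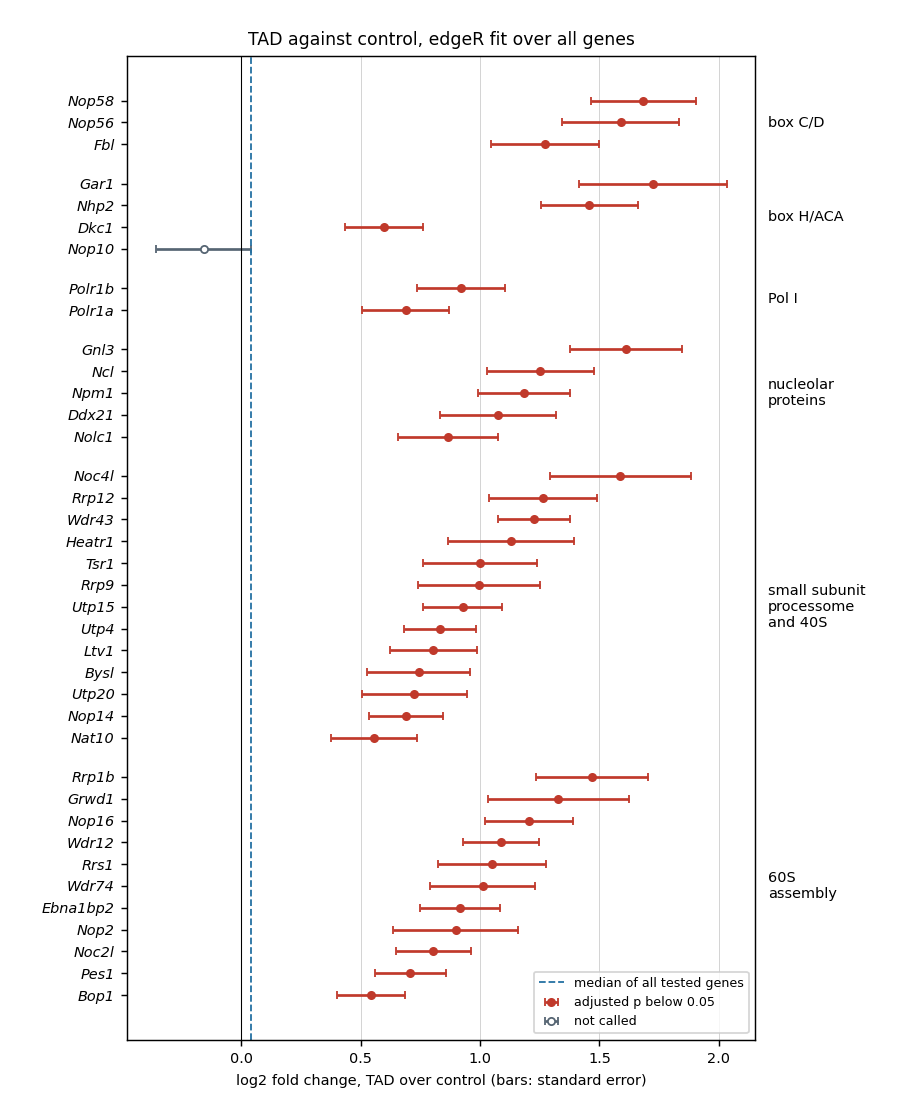
Log2 fold change of TAD over control for each member from the edgeR fit over all genes, with bars for the standard error, filled where called and open where not. Gar1 at 1.72 is the largest and Nop10 at -0.16 the only value below 0; the dashed line marks the median of all tested genes at 0.04.

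To compare levels between genes, CPM was divided by the length of each gene's merged exons in kilobases (GENCODE M21). Members then ran from 3.05 to 93.3 CPM per kilobase in TAD (median 14.4) and from 1.43 to 41.1 in control (median 6.95). Npm1 was the highest on this scale in both groups, at 93.3 ± 16.8 in TAD and 41.1 ± 8.17 in control (SD, n = 3 and 5). Nop10 was next in control, at 37.2 ± 8.33, within the spread of Npm1. In TAD it stood at 33.4 ± 1.19, below Nhp2 at 54.9 ± 15.2 and Ncl at 45.1 ± 15.6; its rank on the per-kilobase scale was 4 of 38 in TAD and 2 of 38 in control. Rrs1 followed at 31.8 ± 10.4 in TAD and 15.4 ± 2.31 in control. In TAD the SD ranges of neighbours in the order overlapped from Nhp2 to Rrs1, while those of Npm1 and Nhp2 did not. At the low end stood Rrp1b, with 4.65 ± 1.73 in TAD and 1.68 ± 0.177 in control, and Wdr12, with 3.05 ± 0.534 in TAD and 1.43 ± 0.164 in control.

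The deposited FPKM values gave another order. In each library 96.3% to 96.5% of genes with at least 20 counts had an FPKM that matched, within 1%, a gene length equal to the sum of all its annotated transcripts, and 1.91% to 2.01% matched the merged exons. A gene with many isoforms therefore has a low deposited FPKM for its counts. Nop56, with 19 annotated transcripts and a summed length 4.97 times its merged exons, ranked 33 of 38 by deposited FPKM and 19 of 38 per kilobase of merged exons in control. Nolc1 (length ratio 4.71) ranked 22 by FPKM and 9 per kilobase. Ratios between libraries of the same gene are not altered by this.

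**Figure D3:**
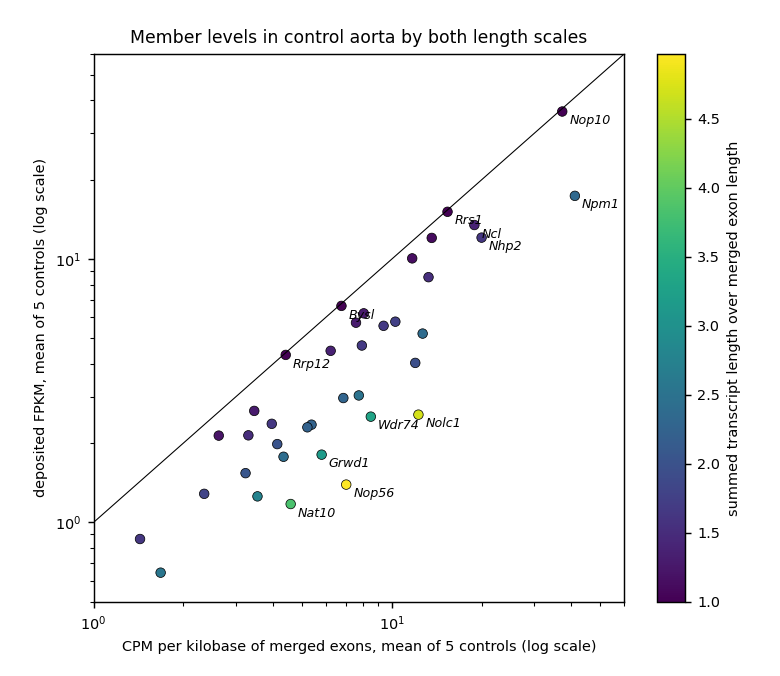
Mean level of each member in the 5 controls, as CPM per kilobase of merged exons (x axis, log scale) and as deposited FPKM (y axis, log scale), coloured by the ratio of the summed transcript length to the merged exon length. Members with a ratio of 1, such as Nop10, Rrs1, Bysl and Rrp12, lie near the line of equality, and Nop56 (4.97) and Nolc1 (4.71) lie farthest below it.

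Several members are hosts of snoRNAs, the guide RNAs of snoRNPs. Annotated snoRNA genes lie on the same strand inside 7 members: 5 in Nop56, 4 in Nop58, 3 each in Ncl, Gnl3 and Wdr43, 2 in Tsr1 and 1 in Dkc1. All 7 were called higher, with a median log2 fold change of 1.25, against 0.93 for the 31 members without one, of which 30 were called. The snoRNAs themselves were not analysed here.

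Beyond the 38, 123 other genes of ribosome biogenesis were tested, from lists drawn up by function. Of these 55 were called higher and none lower (edgeR and DESeq2; also none at an unadjusted p below 0.05), with a median log2 fold change of 0.57, against 15.2% higher and a median of 0.04 over all genes. The counts by list are in the bar plot of called shares. Further factors of the small subunit processome were higher in 23 of 47 cases, and all 47 had a positive change. Pwp2, a processome scaffold known from yeast, had 49.96, 25.8 and 36.5 CPM in TAD and 18.8, 20.1, 15.7, 18.4 and 17.0 CPM in control, with no overlap (1.06 ± 0.20). Nol10, another processome protein, was close behind (1.00 ± 0.25), a call lost without TAD 1 and without TAD 1 and control 1. Without TAD 1 the count was 7, without TAD 1 and control 1 it was 5, and with a single control left out it was 13 to 15. In those fits 10.2%, 8.02% and 11.2% to 12.9% of all genes were called higher.

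Further 60S factors were higher in 25 of 46 cases (54.3%, against 15.2% of all genes). The strongest were Ppan, with 62.6, 29.0 and 39.8 CPM in TAD and 14.7, 17.8, 11.2, 14.4 and 12.7 CPM in control, and Mrto4, at 1.52 ± 0.21. Both are early factors of the 60S precursor, Ppan had a log2 fold change of 1.63 ± 0.25, and both were called under every alternative tried. The count was 14 without TAD 1, 10 without TAD 1 and control 1, and 16 without control 5. The shares of all genes called higher there were 10.2%, 8.02% and 11.2%. In the rest of the RNA polymerase I machinery 5 of 19 were called higher (26.3%, against 15.2% of all genes). The largest changes were those of the subunit Polr1e (1.55 ± 0.21) and the nucleolar protein Mybbp1a (1.06 ± 0.22). The polymerase I count was 2 without TAD 1 and 3 without TAD 3 or control 4. It was 1 without TAD 1 and control 1, where the Mybbp1a call was among those lost. Of all genes 10.2% were called higher without TAD 1, 14.9% without TAD 3 and 11.2% without control 4. The share was 8.02% without TAD 1 and control 1.

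Assembly factors of snoRNPs were called in 2 of 11 cases, a share of 18.2% that is near the background of 15.2%. These were Nufip1 (1.40 ± 0.32) and Snu13 (0.62 ± 0.11), which encodes a core protein of the box C/D snoRNP. The Nufip1 call was lost without TAD 1 (adjusted p 0.0509), and the count was 1 without TAD 1, with or without control 1, and 3 without TAD 2, control 1 or control 2. RNA polymerase III, which makes 5S ribosomal RNA and transfer RNAs, had 5 of 21 genes higher and 1 lower. These are shares of 23.8% and 4.76%, against 15.2% and 11.8% of all genes, and the median log2 fold change of the list was 0.14. The subunit gene Polr3d was among those that rose (0.89 ± 0.20), and its call was lost without TAD 1 (adjusted p 0.0606). Gtf3c1, a subunit of the factor TFIIIC, fell to 54.0, 59.6 and 61.7 CPM in TAD, against 86.1, 88.1, 90.7, 95.4 and 88.8 CPM in control (-0.62 ± 0.10, edgeR adjusted p = 0.00306). The higher count for polymerase III was 1 without TAD 1, and 3 without TAD 2, control 2, control 4 or control 5. Without TAD 1 and control 1 it was 0 with edgeR (5 at an unadjusted p below 0.05; DESeq2 was not run on those libraries and gave 5 with all). The RNA exosome, which trims the 5.8S precursor, had 4 of 13 higher (30.8%, against 15.2% of all genes). Exosc1 was at 1.14 ± 0.23 and Dis3, a catalytic subunit, at 1.00 ± 0.14. Without TAD 1 and control 1 the exosome count was 1, and Exosc1 was not called. Of all genes 8.02% were called higher in that fit and 10.2% without TAD 1. With TAD 2 or any 1 control left out, the share was 11.2% to 15.1%.

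Cytosolic ribosomal proteins were called higher in 37 of 78 cases (47.4%, against 15.2% of all genes). Their median log2 fold change was 0.56, and 77 had a positive change. The gene with the largest change was Rpl38, with 150, 66.6 and 64.1 CPM in TAD and 49.7, 47.9, 38.9, 43.8 and 38.9 CPM in control. TAD 1 was far above the other libraries for this gene (1.09 ± 0.27). Rpl13a (1.01 ± 0.30) followed, with groups that overlapped and a call that was lost when any library but TAD 2 was left out. Without TAD 1, 3 of the 78 were called, and 1 without TAD 1 and control 1. Both counts lay below the share of all genes called higher in those fits, 10.2% and 8.02%. With 1 control left out the count was 12 (control 5), 13 (control 3), 14 (control 4), 21 (control 1) and 44 (control 2). Ribosomal protein genes have many near-identical pseudogene copies, so how their reads were counted is uncertain.

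**Figure D4:**
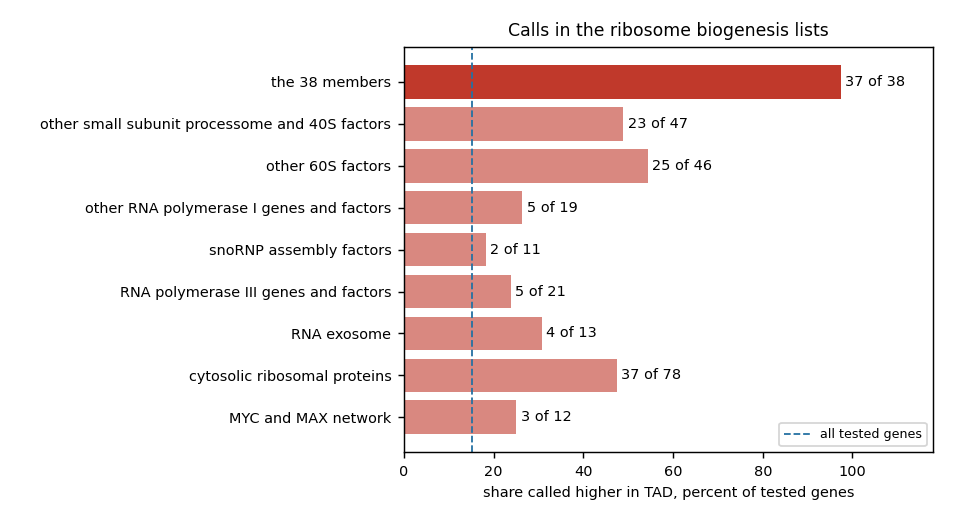
Share of tested genes called higher in TAD for the 38 members and for each related list, with the count printed at the end of each bar. The dashed line is the share over all tested genes, 15.2%, and the snoRNP assembly factors at 18.2% lie closest to it.

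In the MYC and MAX network, Myc itself had 86.2, 41.6 and 72.2 CPM in TAD and 12.8, 14.8, 10.96, 9.68 and 6.14 CPM in control. The groups were far apart, TAD 2 was the lowest of the 3 as for most members, and the log2 fold change was 2.62 ± 0.31 (edgeR adjusted p = 0.000874). Of the 12 genes in the list 3 were higher (25%) and 2 lower (16.7%), against 15.2% and 11.8% of all genes. Mxd1, which competes with MYC for MAX, had 182, 98.04 and 79.8 CPM in TAD and 19.6, 17.5, 24.5, 23.2 and 32.7 CPM in control (2.35 ± 0.29). MYC's partner Max was also higher (0.92 ± 0.16). Mxd4, a relative of Mxd1, fell (-0.71 ± 0.13), as did Mlxipl, a sugar-responsive factor that pairs with Mlx (-1.57 ± 0.35). These calls held with each single library left out. That of Mlxipl was lost without TAD 2, control 1 and control 2.

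Leukocyte markers moved with the groups too. Neutrophil markers were called higher in 7 of 7 tested cases, with summed levels of 1397, 1165 and 482 CPM in TAD and 15.2 to 146 CPM in control. Macrophage and monocyte markers were called higher in 7 of 10, with 1460, 1141 and 1532 CPM in TAD and 318 to 628 CPM in control. Of all genes 15.2% were called higher. Among the tested markers of these 2 lists only Mmp8, a neutrophil collagenase, was at 0 in a library, and that was control 3. Of the TAD libraries, TAD 3 was the lowest for all 7 neutrophil markers. TAD 2 was the lowest for 7 of 10 macrophage markers, as it was for 35 of 38 members. That order was not particular to macrophages: TAD 2 was also lowest for 8 of 8 fibroblast, 7 of 8 contractile smooth muscle and 5 of 7 endothelial markers. It was lowest for 1 of 7 adipocyte and 1 of 7 lymphocyte markers. Lymphocyte markers were called in 0 of 7 cases and fibroblast markers in 0 of 8, with edgeR and with DESeq2; at an unadjusted p below 0.05 in edgeR there were 1 and 0. Markers of adipocytes were lower in 5 of 7, of endothelium in 3 of 7 and of contractile smooth muscle in 1 of 8 (12.5%). Of all genes 11.8% were lower. The part of cell makeup in the members' change was not tested.

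Markers of proliferating cells, which also make ribosomes at a high rate, had a positive change in 12 of 12 cases, with a median log2 fold change of 1.12, beside 1.01 for the members. Of these 1 was called (8.33%, against 15.2% of all genes), namely Pcna (0.76 ± 0.19), a call lost without TAD 1 or TAD 3. Their summed level was 164, 98.04 and 350 CPM in TAD and 72.5, 169, 84.1, 86.9 and 93.4 CPM in control. The groups overlapped, since TAD 2 was below control 2. Among TAD libraries TAD 2 was the lowest for all 12 proliferation markers, as for most members. The highest library differed, being TAD 3 for all 12 proliferation markers and TAD 1 for 36 of 38 members. The part of proliferation in the members' change was not tested.

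**Figure D5:**
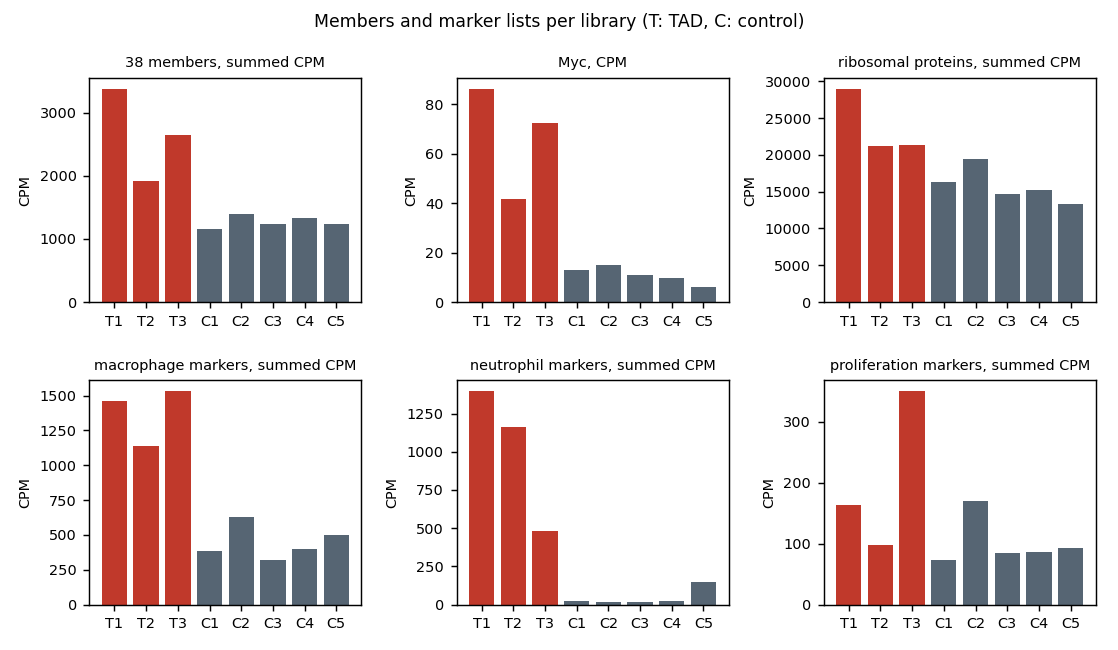
Levels per library, 3 TAD (red, left) and 5 control (grey, right), for the summed members, Myc, summed cytosolic ribosomal proteins and 3 marker lists, all in CPM on axes from 0. The members are at 1927 to 3384 CPM in TAD and 1158 to 1404 CPM in control, and the proliferation markers at 98.04 to 350 CPM in TAD and 72.5 to 169 CPM in control.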

How the data were processed

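RNA of mouse aortic tissue was sequenced as 3 TAD and 5 control libraries, grouped by their titles. According to the submitters' processing notes, HTSeq, HISAT2, fastp 0.23.1 and bcl2fastq 2.19 were used; the notes give human builds, although the gene identifiers are mouse. Neither the mouse build nor the use of strand is stated there. The deposited table holds raw counts and FPKM (fragments per kilobase, scaled to the library) for each gene and library, per the file headers.

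In R 4.3.3, edgeR's filterByExpr left 13701 of 13839 genes, TMM factors scaled the libraries, and the quasi-likelihood F test (edgeR 4.0.16) compared the groups. Genes were called at a Benjamini-Hochberg adjusted p below 0.05. The SE of a log2 fold change is its size over the square root of its F value. CPM used TMM-scaled totals, and log2 CPM a prior count of 2. Coordinates and lengths came from GENCODE M21 (GRCm38) and promoters from RefSeq (GRCm38.p6; 33 of 38 members matched by symbol). Replicates were compared, and all pairs of libraries differed beyond sampling noise. Library totals were 12042971 to 15039132 counts.

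The members and the gene lists were chosen with earlier results of these data known. Values in every library are given, in each role of 4 or more members, for the largest and the smallest change and the most expressed by FPKM, and for all members of smaller roles. From each related list the 2 called genes with the largest absolute change are named, besides Myc; 1 gene picked this way is not reported here. Other named genes of those lists, the motifs and the length comparison were chosen after values were seen. Zfp593, Polr1g and Rpl24 of these lists were not analysed here. Alternatives were DESeq2 1.42.0, limma 3.58.1 on log2(FPKM + 1) and log2(FPKM + 0.1) over genes with a mean FPKM of at least 0.5 or all genes, other scalings, no count filter, a replicate block and leaving out libraries.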

Additional observations from a re-analysis of the deposited data

Results flagged for a closer look

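The level of Nhp2 in control 2, 30.2 CPM, stood apart from the other controls, which had 20.3 to 22.3 CPM. The gap was wide for the range of 5 libraries, and chance alone flags about 1 in 20 such groups. Its TAD libraries had 83.1, 53.6 and 52.2 CPM, all above control 2.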

How the results depend on the processing

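No member was called lower under any of the 18 alternatives, and 37 had a positive log2 fold change in each. The number called higher, 37 with all libraries, was 37 with DESeq2 and with library totals, 36 without the count filter, 35 with limma on log2(FPKM + 1) or log2(FPKM + 0.1) and 34 with upper-quartile scaling or with limma on unfiltered values. Over those settings the share of all genes called higher ran from 13.5% with upper-quartile scaling to 18.3% with DESeq2. Leaving out single libraries gave 21 to 37 members, and their median log2 fold change, 1.01 with all libraries, ran from 0.78 to 1.21. Without control 1 and TAD 1, 18 members were called with a median of 0.79; without control 1, control 2 and TAD 2 the median was 1.26. The median was 0.78 with limma on log2(FPKM + 1), filtered or not; that scale understates changes of low genes. With a replicate block 6 members were called (Gnl3, Nhp2, Noc4l, Nop58, Rrp1b and Wdr43) and 31 lost their call, at adjusted p of 0.0504 to 0.228, while over all genes 672 were called higher in place of 2083. No label says that libraries of the same number are paired. Deviations from the group means correlated at 0.43, 0.0972 and 0.54 for numbers 1, 2 and 3. TAD 1 and TAD 3 correlated best with the control of their own number, and TAD 2 with control 1. Controls 4 and 5 have no TAD library of the same number, so under the block they add nothing to the comparison of the groups. Those 6 members were called under all 18 alternatives, and 18 members under all but the block. Except where stated, the cause of these shifts was not tested. Counts of the related lists moved as given beside them. Under the block, edgeR called 5 further 60S factors and 1 further RNA polymerase I gene, and 0 genes for ribosomal proteins (20 at an unadjusted p below 0.05), further processome factors (18), snoRNP assembly (2), polymerase III (2) and the exosome (3); DESeq2 without a block gave 52, 25, 3, 5 and 4. In the MYC and MAX network 2 genes were called higher under the block. The calls of Max and Mxd4 were lost there, and those of Myc and Mxd1 held. Only 3 TAD libraries were available, and depth was at least 12042971 counts in each library.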
